A study of Mus musculus with 6 samples.

Results

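The 10 genes described here encode MHC class I molecules of the mouse and the machinery that loads them with peptide: the heavy chain genes H2-K1, H2-D1, H2-T23, H2-Q4 and H2-Q7, the light chain gene B2m, the transporter genes Tap1 and Tap2, the loading chaperone gene Tapbp, and the transactivator gene Nlrc5. They were picked by name and found by NCBI Gene ID, and all 10 were present among the 45679 gene symbols of the files. They were followed in ovaries of mice labelled wild type BDF1, a hybrid of the C57BL/6 and DBA/2 strains, in 3 groups of 2 messenger RNA libraries. The first group was labelled 65 weeks old and injected with MIT-001, a small molecule that scavenges reactive oxygen species in mitochondria, at 0.5 mg/kg into the abdomen for 7 days (old MIT-001). The second was labelled 65 weeks old and injected with PBS (old PBS), and the third 8 weeks old and injected with PBS (young PBS), both also for 7 days. The labels count 20 young and 40 old mice over the study but do not tie animals to libraries or say whether ovaries were pooled, so every p-value measures the spread between these libraries, which may be technical. Levels are TPM, a transcript abundance scaled for gene length and for the library total, as the authors deposited them.

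MHC class I molecules display peptides from inside the cell to CD8 T cells and to natural killer cell receptors, and nearly all nucleated cells carry them. The proteasome cuts proteins to peptides, the TAP transporter pumps these into the endoplasmic reticulum, and tapasin holds the empty heavy chain with its light chain beside TAP until a peptide fits. Interferon gamma raises the whole set through IRF1 and NLRC5, and NLRC5 acts at a conserved promoter module of X and Y boxes.

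Because these genes are known to share promoter elements, the stretches that hold them are shown for 4 members, with the capitals marking the letters searched (RefSeq promoter table, GRCm38.p6, 5′ to 3′ on the gene's strand). Searched on both strands were enhancer A (an NF-kB site), a pair of forms of the interferon response element, TGACG (the core of the X2 box) and CCAAT (the Y box). The capitals of the H2-K1 stretch show, in order, enhancer A, the first form of the interferon element, the X2 core and the Y box read on the other strand, and those of B2m begin with the second form. Each stretch lies before a RefSeq transcript start, on chromosome 17 or, for B2m, on chromosome 2. The H2-K1 stretch also lies inside the span of the gene in the files, whose start is farther upstream.
H2-K1, chr17:34000350-34000473, minus strand: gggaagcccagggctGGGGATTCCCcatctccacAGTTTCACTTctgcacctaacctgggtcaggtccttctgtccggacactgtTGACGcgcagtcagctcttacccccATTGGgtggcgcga
H2-Q7, chr17:35439007-35439134, plus strand: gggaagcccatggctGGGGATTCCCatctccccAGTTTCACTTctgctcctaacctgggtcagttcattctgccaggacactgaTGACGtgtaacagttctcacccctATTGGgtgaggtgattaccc
H2-Q4, chr17:35379447-35379581, plus strand: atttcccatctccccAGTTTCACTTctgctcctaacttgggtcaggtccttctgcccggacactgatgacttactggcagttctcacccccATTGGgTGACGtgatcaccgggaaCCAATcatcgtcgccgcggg
B2m, chr2:122147533-122147653, plus strand: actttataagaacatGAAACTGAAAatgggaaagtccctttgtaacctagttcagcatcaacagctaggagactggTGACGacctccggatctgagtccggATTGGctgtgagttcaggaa

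The table held 8 of the 10 members, and 250 bases before each start were searched. H2-K1, H2-D1 and H2-Q7 held the enhancer A letters, which 0.0852% of all 32851 promoters in the table held. H2-K1, H2-D1, H2-Q4 and H2-Q7 held the first interferon form, against 1.48% of all promoters, and B2m and H2-T23 held the second, against 2.98%. The X2 core letters stood in 6 members (17.8% of promoters) and the Y box letters in all 8 (33.8%). Both were found within the 250 bases, in any order, in H2-K1, H2-D1, H2-Q4, H2-Q7, B2m and Tap1 (6.12%). In Tap1 the CCAAT began 222 bases before the start and the TGACG 86 bases before it, so CCAAT lay farther upstream. In the stretches shown, H2-K1 and H2-Q7 carry enhancer A, interferon element, X2 core and Y box in the same order, while the H2-Q4 stretch has its TGACG after the first Y box. The short motifs are frequent, and a match is a description of letters only.

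Some facts of the libraries bear on all values below. Aligned sequence, worked out from the most frequent ratio of coverage to FPKM, came to 6.34 to 7.14 gigabases in each library. That ratio was shared by 30.94% to 32.66% of the genes used for it. Summed TPM was 1.8918 times summed FPKM in young PBS replicate 1, and 2.2564 to 2.3149 times in the other libraries. The tissue label was checked with oocyte and granulosa cell markers: all 7 and all 6 were above 0 in every library. Oocytes are known to dwindle with age, and the age labels were not borne out by these markers: the 7 oocyte genes summed to 76.6 and 37.6 TPM in the libraries labelled old MIT-001, to 410 and 428 TPM in those labelled old PBS, and to 271 and 32.4 TPM in those labelled young PBS. The group labelled young therefore held fewer oocyte transcripts than the group labelled old PBS, and its libraries differed from each other. Granulosa and macrophage markers, given with the other cell types below, also separated the PBS groups. Whether the labels of the PBS groups were exchanged was not tested. An exchange would turn round every sign in old PBS against young PBS. It would also make old MIT-001 against old PBS a comparison with young ovaries, in which age and compound differ together. Old MIT-001 against young PBS would then be the comparison for the compound. Directions, and what each comparison addresses, therefore hold for the libraries as labelled.

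The heavy chain binds the peptide, and H2-K1 and H2-D1 encode the classical heavy chains seen by CD8 T cells. H2-K1 (Gene ID 14972, chromosome 17, 33996012 to 34000619 on the minus strand of mm10) was at 219 and 211 TPM in the old MIT-001 libraries, 352 and 209 TPM in the old PBS libraries, and 327 and 254 TPM in the young PBS libraries. The old PBS pair spanned the whole range of this gene, so those libraries overlapped with both other groups. H2-D1 (14964, chromosome 17, 35263094 to 35267497, plus strand) was at 559 and 498 TPM in old MIT-001, 382 and 337 TPM in old PBS, and 887 and 401 TPM in young PBS. Old PBS was lowest and overlapped with neither group, while the young pair differed more than 2-fold.

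H2-T23 encodes Qa-1, a nonclassical heavy chain that presents leader peptides of other class I chains to NKG2A receptors. H2-T23 (15040, chromosome 17, 36029977 to 36032701, minus strand) was at 185 and 223 TPM in old MIT-001, 71.0 and 17.2 TPM in old PBS, and 140 and 207 TPM in young PBS. It had the widest range of the 10 genes, 13.0-fold from its lowest to its highest library, and both old PBS libraries were below the other 4. H2-Q4 and H2-Q7 are Qa region genes, and H2-Q7 encodes Qa-2, which can be anchored to the membrane by a lipid. H2-Q4 (15015, chromosome 17, 35379617 to 35384674, plus strand) was at 56.6 and 51.2 TPM in old MIT-001, 26.6 and 27.1 TPM in old PBS, and 71.4 and 55.3 TPM in young PBS. The old PBS libraries were nearly equal and apart from all others. H2-Q7 (15018, chromosome 17, 35439140 to 35443773, plus strand) was at 14.7 and 7.86 TPM in old MIT-001, 7.27 and 5.05 TPM in old PBS, and 21.5 and 10.5 TPM in young PBS. In each of the MIT-001 and young groups replicate 1 was about double replicate 2.

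B2m encodes beta-2 microglobulin, the light chain that every class I heavy chain needs to reach the surface. B2m (12010, chromosome 2, 122147687 to 122153082, plus strand) was at 722 and 476 TPM in old MIT-001, 433 and 384 TPM in old PBS, and 854 and 823 TPM in young PBS. The 3 groups did not overlap, with old PBS lowest and young PBS highest.

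Tap1 and Tap2 encode the subunits of the peptide transporter, and Tapbp encodes tapasin. Tap1 (21354, chromosome 17, 34187556 to 34197225, plus strand) was at 25 and 23.4 TPM in old MIT-001, 26.3 and 18.7 TPM in old PBS, and 26.5 and 53.3 TPM in young PBS. Young PBS replicate 2 stood above the other libraries, which were close together. Tap2 (21355, chromosome 17, 34204479 to 34216321, plus strand) was at 82.4 and 141 TPM in old MIT-001, 92.0 and 64.2 TPM in old PBS, and 40.7 and 284 TPM in young PBS. The young pair held both the lowest and the highest value, 6.97-fold apart. Tapbp (21356, chromosome 17, 33919478 to 33929290, plus strand) was at 165 and 161 TPM in old MIT-001, 121 and 103 TPM in old PBS, and 123 and 328 TPM in young PBS. Here too young PBS replicate 2 was far above all others, and replicate 1 stood only just above old PBS.

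NLRC5 is the transactivator of class I genes and the scarcest transcript of the set. Nlrc5 (434341, chromosome 8, 94434335 to 94527272, plus strand) was at 2.09 and 0.744 TPM in old MIT-001, 1.63 and 1.23 TPM in old PBS, and 2.43 and 1.95 TPM in young PBS. The old MIT-001 pair spanned the whole old PBS range. Its mean read depth over the gene was 1.91 to 8.27, against 1103 to 3130 for B2m, the lowest depth of the 10 genes.

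**Figure D1:**
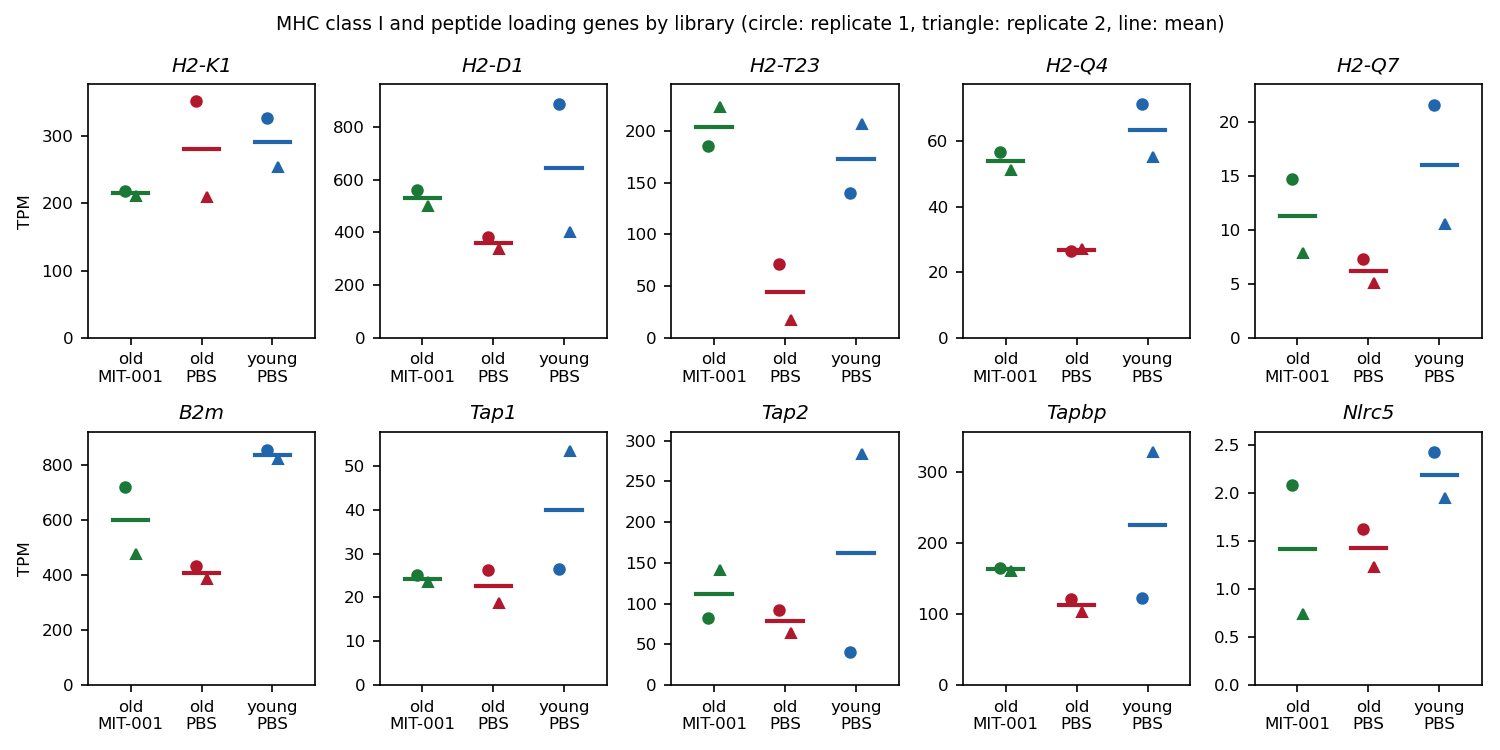
Level in TPM (y axis, linear from 0) of each of the 10 genes in the 3 groups (x axis), with a circle for replicate 1, a triangle for replicate 2 and a line for the group mean. Old PBS has the lowest mean for 8 of the genes, the exceptions being H2-K1 and Nlrc5, and the young PBS libraries are far apart for Tap2 (40.7 and 284 TPM).

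TPM is scaled for length, so levels can be set in order across genes. By mean TPM over the 6 libraries the order was B2m (615), H2-D1 (511), H2-K1 (262), Tapbp (167), H2-T23 (141), Tap2 (117), H2-Q4 (48.0), Tap1 (28.9), H2-Q7 (11.1) and Nlrc5 (1.68). B2m and H2-D1 overlapped in range, as did H2-D1 and H2-K1 and each neighbouring pair from H2-K1 to H2-Q4. H2-Q4 and Tap1 also overlapped, and so did Tap1 and H2-Q7, while every H2-Q7 value was above every Nlrc5 value. The 10 genes together made up 0.203% and 0.179% of the TPM in old MIT-001, 0.151% and 0.117% in old PBS, and 0.249% and 0.242% in young PBS. Old PBS replicate 2 had the lowest value of 7 members, and young PBS replicates 1 and 2 had the highest value of 5 and 3 members.

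**Figure D2:**
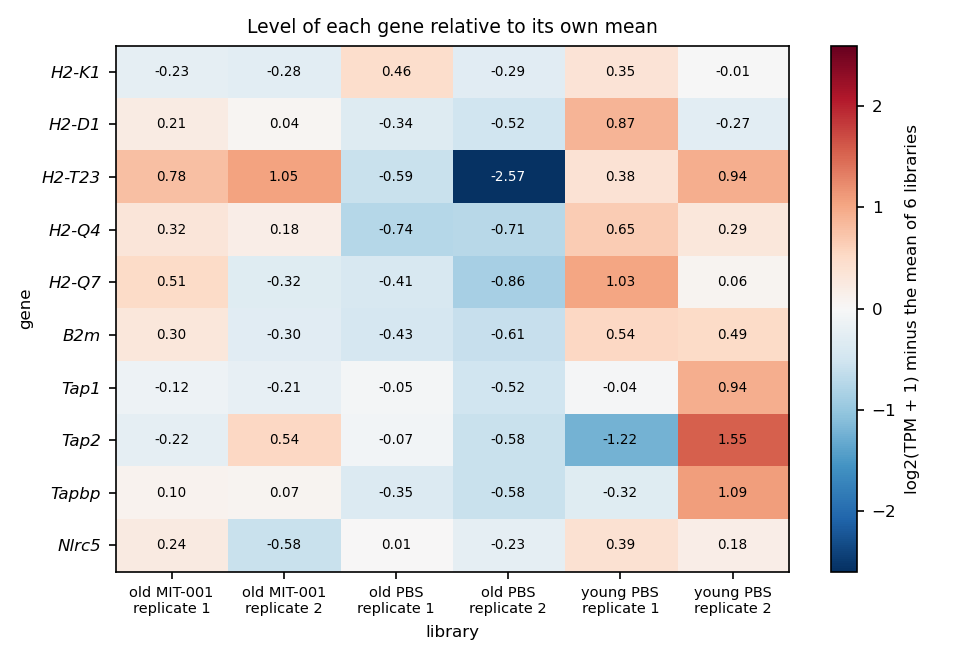
Each cell is log2(TPM + 1) of a gene (rows) in a library (columns) minus that gene's mean over the 6 libraries, from blue (below) to red (above). Old PBS replicate 2 is below the mean for all 10 genes, H2-T23 most (-2.57), while Tap2 runs from -1.22 to 1.55 between the young PBS libraries.

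If the labels hold, the comparison of old PBS with young PBS addresses the difference with age in ovaries without the compound. All 10 genes had a mean on the log2 scale that was lower in old PBS, with a median log2 fold change of -0.79 (from -2.24 for H2-T23 to -0.09 for H2-K1), against a median of 0.23 over the 16473 genes tested. A fold change below 0 was found for 31.9% of all genes, and above 0 for 68.1%. B2m, the light chain, averaged 408 ± 34.5 TPM in old PBS and 838 ± 21.9 TPM in young PBS (SD, n = 2 each), and H2-Q4 averaged 26.9 ± 0.366 TPM in old PBS and 63.4 ± 11.4 TPM in young PBS. None of the 10 passed limma's test at an adjusted p of 0.05, where 0.0364% of all genes did (0.0121% higher and 0.0243% lower). At an unadjusted p below 0.05, 4 members were lower (B2m, H2-Q4, H2-Q7 and H2-T23) and 0 higher, against 3.55% of all genes lower and 14.6% higher (18.1% in either direction). In 8 members, all but H2-K1 and Tap2, both old PBS libraries were below both young PBS libraries, and in 0 above. This held for 11% of all genes, and the opposite for 38.1%.

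By gene, the log2 fold change of log2(TPM + 1) values was -1.20 ± 0.21 for H2-Q4 (SE, limma adjusted p 0.17), -2.24 ± 0.62 for H2-T23 (0.223) and -1.04 ± 0.28 for B2m (0.22). It was -1.19 ± 0.45 for H2-Q7 (0.259) and -0.73 ± 0.39 for H2-D1 (0.378). These 5 encode surface chains, while the classical H2-K1 stood at -0.09 ± 0.30 (0.918), with a 95% interval from -0.82 to 0.65. The loading genes stood at -0.84 ± 0.45 for Tapbp (0.369), -0.73 ± 0.37 for Tap1 (0.347) and -0.49 ± 0.85 for Tap2 (0.815), and Nlrc5 at -0.39 ± 0.38 (0.627). The interval of Tap2 ran from -2.56 to 1.59, the widest of the set. Without young PBS replicate 1, where limma called 1152 of 16189 genes and the single young library left was assumed to vary like the other groups, H2-Q4 (-1.02, adjusted p 0.0439) and Tapbp (-1.55, adjusted p 0.0342) passed and H2-K1 turned to 0.096. Without young PBS replicate 2, Tapbp stood at -0.14 (adjusted p 0.628) and Tap1 at -0.24 (0.589), against -1.23 (0.0544) for Tap1 without replicate 1. The estimates of both thus depended on which young library was kept. H2-T23 stood at -3.23 without old PBS replicate 1 and -1.25 without replicate 2. Without young PBS replicate 2, Tap2 turned to 0.90, and without old PBS replicate 2, H2-K1 turned to 0.29.

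The scaling moved the background but not the side of these genes. Of all genes at an unadjusted p below 0.05, 80.5% were higher in old PBS with TPM as deposited, 62.6% with FPKM, 52.7% when library distributions were made equal by quantile normalization and 36.2% when library medians were made equal (median centring). At that p, 4 of 10 members were lower with TPM, 6 of 9 with FPKM, 5 of 10 with quantile normalization and 7 of 10 with median centring, and 0 were higher under each. Of all genes tested, 3.55%, 4.64%, 5.89% and 7.88% were lower at that p under the same settings, in that order. The same 8 members lay entirely below young PBS with median centring, where 25.4% of all genes did, and with quantile normalization, where 19.3% did. Median centring moved the median of all genes to -0.09, against 0.23.

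If the labels hold, the comparison of old MIT-001 with old PBS addresses the compound in old ovaries. Of the 10 genes 8 had a higher mean on the log2 scale in old MIT-001, with a median log2 fold change of 0.53 against 0.03 over all genes tested, and H2-K1 and Nlrc5 had a lower one. Of all genes, 53.5% had a fold change above 0 and 46.5% below. H2-T23, which encodes Qa-1, averaged 204 ± 27.0 TPM in old MIT-001 and 44.1 ± 38.0 TPM in old PBS, and H2-Q4 averaged 53.9 ± 3.86 TPM in old MIT-001 and 26.9 ± 0.366 TPM in old PBS (SD, n = 2 each). None passed limma's test at an adjusted p of 0.05, where 0.0182% of all genes did. At an unadjusted p below 0.05, H2-Q4 and H2-T23 were higher (7.45% of all genes) and 0 members lower (4.36%), out of 11.8% in either direction. Both old MIT-001 libraries were above both old PBS libraries in 6 members (B2m, H2-D1, H2-Q4, H2-Q7, H2-T23 and Tapbp), and below in 0. This held for 27.2% of all genes, and the opposite for 24.2%. Of all genes at that unadjusted p 63.1% were higher with TPM, 52.4% with median centring and 45.6% with quantile normalization, and 2 members were higher and 0 lower under each. With quantile normalization 5 members lay entirely above old PBS, without H2-Q7, against 21.7% of all genes above and 29.5% below. With median centring 6 lay entirely above and H2-K1 entirely below, against 21.6% of all genes above and 31.9% below.

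The log2 fold change was 2.50 ± 0.62 for H2-T23 (SE, limma adjusted p 0.219), 0.98 ± 0.21 for H2-Q4 (0.184), 0.74 ± 0.45 for H2-Q7 (0.635), 0.55 ± 0.39 for H2-D1 (0.704) and 0.52 ± 0.28 for B2m (0.564). The classical H2-K1 stood at -0.34 ± 0.30 (0.802). Tapbp stood at 0.54 ± 0.45 (0.769), Tap2 at 0.48 ± 0.85 (0.934), Tap1 at 0.12 ± 0.37 (0.97) and Nlrc5 at -0.06 ± 0.38 (0.987). The 95% intervals were -0.78 to 1.01 for Tap1 and -0.99 to 0.87 for Nlrc5. H2-Q4 passed when only the 4 libraries compared were fitted (adjusted p 0.0497) and without young PBS replicate 1 or 2 (0.0449 and 0.0458). Those fits called 356, 399 and 395 genes in all, against 3 with all libraries. H2-T23 stood at 3.49 without old PBS replicate 1 and 1.51 without replicate 2. H2-K1 and Nlrc5 turned to 0.038 and 0.058 without old PBS replicate 1, Nlrc5 to 0.35 without old MIT-001 replicate 2, and Tap1 to -0.12 without old PBS replicate 2.

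**Figure D3:**
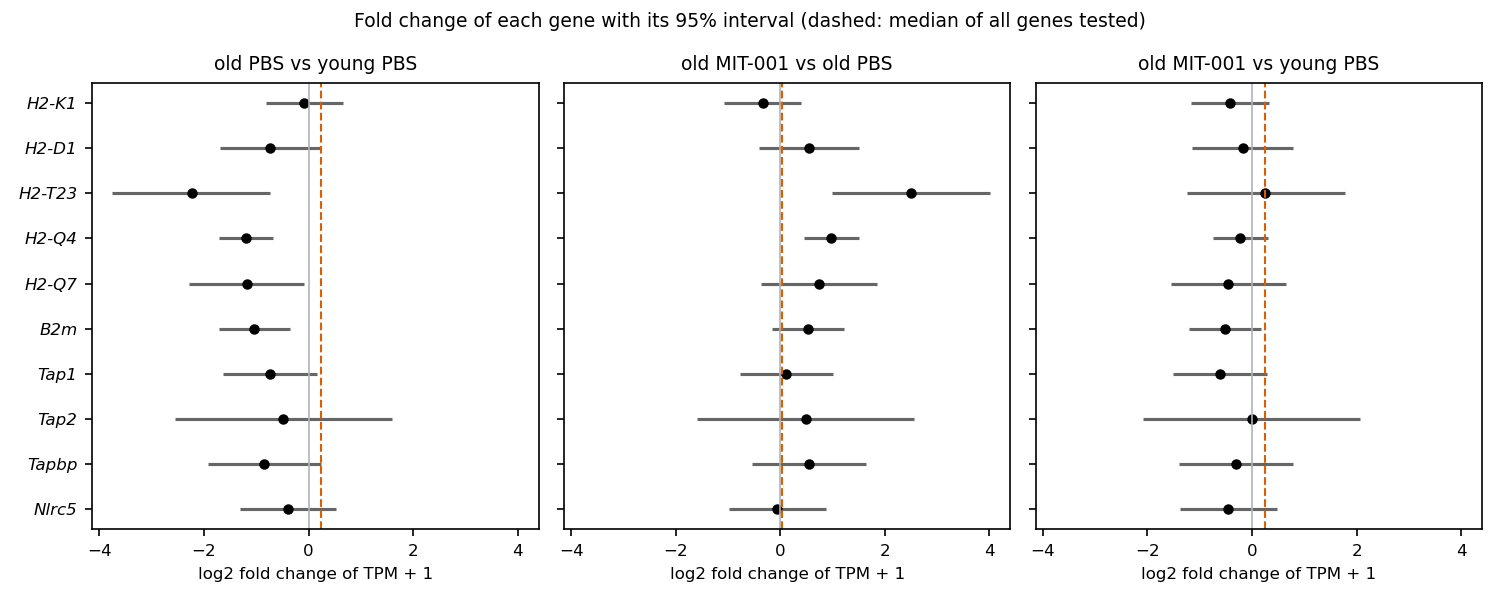
Log2 fold change of log2(TPM + 1) values (x axis) for each gene (rows) in the 3 comparisons, with points for the estimate, bars for the 95% interval and a dashed line for the median of all 16473 genes tested. All 10 points lie below 0 in old PBS vs young PBS, and H2-T23 (-2.24 and 2.50) is the farthest from 0 in the first and second panels.

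Old MIT-001 was also set against young PBS. The median log2 fold change of old MIT-001 over young PBS was -0.36, against 0.24 over all genes, with 9 members below 0 (30.7% of all genes, with 69.3% above) and H2-T23 at 0.26 ± 0.62 (SE, limma adjusted p 0.889). None passed at an adjusted p of 0.05, where 0 of all genes (0%) did, and 0 members reached an unadjusted p below 0.05, against 17.9% of all genes (17.1% higher and 0.813% lower). That count depends on the scaling: 4 members were lower at that p with median centring (7.96% of all genes) and 2 with quantile normalization (4.61%). Both old MIT-001 libraries were below both young PBS libraries in B2m (-0.51 ± 0.28, adjusted p 0.409), H2-K1 (-0.42 ± 0.30, 0.545) and Tap1 (-0.62 ± 0.37, 0.452), which held for 6.56% of all genes, and above in 0 members, against 37.3%. With median centring the lower count was 7 members and 28.7% of all genes, and of all genes at an unadjusted p below 0.05, 44.2% were then higher, against 95.5% with TPM. The estimates were -0.22 ± 0.21 for H2-Q4 (0.677), -0.18 ± 0.39 for H2-D1 (0.88), -0.45 ± 0.45 for H2-Q7 (0.691), -0.30 ± 0.45 for Tapbp (0.803), -0.45 ± 0.38 for Nlrc5 (0.617) and -0.0032 ± 0.85 for Tap2 (0.999). Without young PBS replicate 1, H2-D1 turned to 0.40, H2-Q7 to 0.031 and H2-T23 to -0.024, and without replicate 2, Tap2 turned to 1.38 and Tapbp to 0.41. Tap2 also turned to 0.38 without old MIT-001 replicate 1. This comparison shares its libraries with the others, so the 3 sets of fold changes are not independent.

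Ratios within a library do not depend on how libraries are scaled to each other. Of the summed TPM of the 5 heavy chain genes, H2-K1 gave 21.2% and 21.3% in old MIT-001, 42.0% and 35.1% in old PBS, and 22.6% and 27.4% in young PBS, so both old PBS libraries had the largest share. H2-T23 gave 17.9% and 22.5% in old MIT-001, 8.46% and 2.89% in old PBS, and 9.65% and 22.3% in young PBS, and both old PBS libraries had the smallest share. H2-D1 was the largest contributor in every library, from 43.2% to 61.3%. The light chain transcript B2m was at 0.698 and 0.48 times the summed heavy chains in old MIT-001, 0.516 and 0.644 in old PBS, and 0.59 and 0.887 in young PBS, with overlap between all groups. Tap2 was at 3.30 and 6.02 times Tap1 in old MIT-001, 3.49 and 3.43 in old PBS, and 1.54 and 5.33 in young PBS, so the transporter subunits were not in 1 fixed proportion. With 2 libraries a group, an exact permutation test of such a ratio cannot give a two-sided p below 0.333, and none is given.

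**Figure D4:**
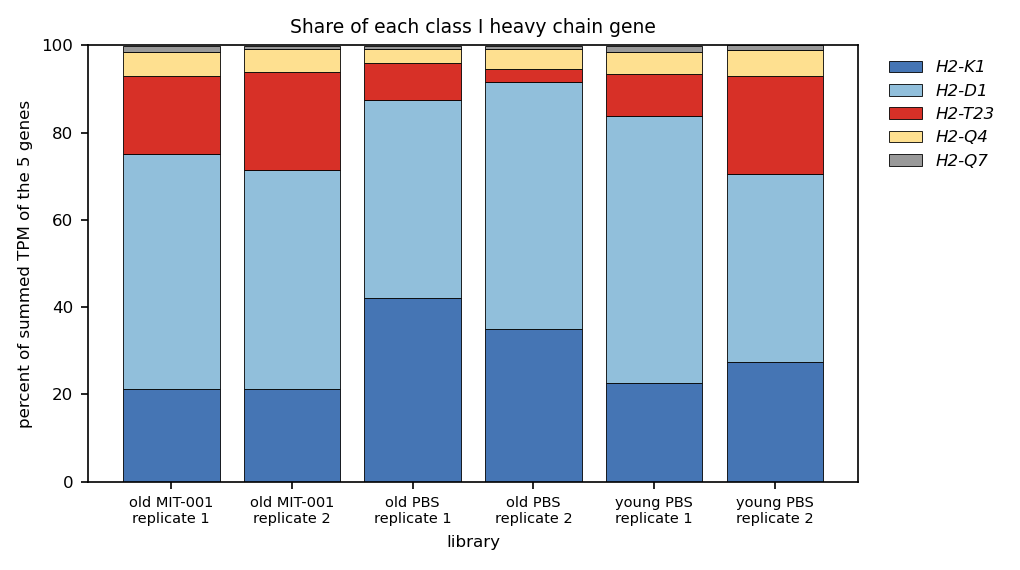
Stacked bars give the percent of the summed TPM of H2-K1, H2-D1, H2-T23, H2-Q4 and H2-Q7 (y axis) from each gene in each library (x axis). The H2-K1 segment is largest in the old PBS libraries (42.0% and 35.1%) and the H2-T23 segment smallest there (8.46% and 2.89%).

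Class I genes resemble each other, and reads can be shared or misplaced between copies. Of all 75-base windows of the GENCODE M21 transcripts of H2-Q7, 17.0% also occurred letter for letter in transcripts of another gene, most often H2-Q10 (8.88%). The share was 3.1% for H2-K1, 5.4% for H2-D1, 5.91% for H2-T23, 7.02% for H2-Q4, 1.1% for Tapbp and 0 for B2m, Tap1, Tap2 and Nlrc5. Windows were pooled over all annotated transcripts of a gene, 4683 for H2-Q7, and only exact matches counted. The share within the main transcript of a gene, and the share of reads that are ambiguous, may therefore differ. H2-T23 lies inside the row of the long noncoding gene A930015D03Rik on the other strand, which was at 5.27 to 8.62 TPM. Tapbp overlaps with Gm19412 on the other strand, at 3.53 to 6.51 TPM, and the strand setting is not given in the sources used here. The mm10 sequence comes from C57BL/6J, while the BDF1 label implies DBA/2 alleles of these polymorphic genes as well. Whether reads of those alleles aligned as well, and whether all libraries carry the same MHC haplotypes, was not tested, so the value of H2-K1, H2-D1, H2-T23, H2-Q4 and H2-Q7 may count the alleles unequally.

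The other class I heavy chains were measured as a list of 26 genes, of which 23 were in the files and 10 passed the filter on low values (TPM of 1 or more in 2 or more libraries). In old PBS against young PBS, 0 of the 10 passed limma's adjusted threshold, 7 were below 0 and 3 above, with a median log2 fold change of -1.42. H2-Q2 was listed at 6.99 and 4.56 TPM in old MIT-001, at 0 in both old PBS libraries, and at 7.17 and 9.24 TPM in young PBS. Its limma adjusted p was 0.0686, and no fold is given against values listed at 0. H2-T24 stood at -1.73 ± 0.39 (SE, adjusted p 0.21), H2-Q1 at -1.05 ± 0.26 (0.212) and H2-K2 at -1.45 ± 0.41 (0.224). In old MIT-001 against old PBS, 8 of the 10 were above 0 and the median was 0.77, with 0 past the threshold, and H2-T24 stood at 1.51 ± 0.39 (0.236). H2-M3, which presents N-formylated peptides, had overlapping groups, at 20.6 and 18.9 TPM in old MIT-001, 17.6 and 20.8 TPM in old PBS, and 19.2 and 15.2 TPM in young PBS.

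The immunoproteasome is the interferon-induced form of the proteasome that feeds class I molecules, with PSMB8, PSMB9 and PSMB10 in place of PSMB5, PSMB6 and PSMB7. Psmb8 was at 46.6 and 41.3 TPM in old MIT-001, 28.0 and 26.2 TPM in old PBS, and 70.9 and 68.8 TPM in young PBS. The 3 groups did not overlap, and the same order held for Psmb9 and Psmb10. In old PBS against young PBS the log2 fold change was -1.34 ± 0.19 for Psmb8 (SE, limma adjusted p 0.127), -0.93 ± 0.20 for Psmb9 (0.21) and -0.79 ± 0.21 for Psmb10 (0.223), and in old MIT-001 against old PBS it was 0.68 ± 0.19 (0.261), 0.44 ± 0.20 (0.463) and 0.30 ± 0.21 (0.711). The activator subunit Psme1 stood at -0.32 ± 0.26 (0.543) and Psme2 at -0.10 ± 0.23 (0.866) in old PBS against young PBS. None of these 5 genes passed in any comparison. Psmb9 and Tap1 lie head to head on chromosome 17 with 225 bases between them, yet Tap1 was at 0.906 and 0.903 times Psmb9 in old MIT-001, 1.34 and 0.973 in old PBS, and 0.698 and 1.41 in young PBS.

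The constitutive subunit genes Psmb5, Psmb6 and Psmb7 were measured alongside, in a list with Psme3, which encodes a proteasome activator and not such a subunit. None of these 4 genes passed in any comparison. In old PBS against young PBS the median log2 fold change of the 4 was 0.17, with Psmb7 at 0.30 ± 0.19 (limma adjusted p 0.443) and Psme3 at 0.25 ± 0.26 (0.655). As a ratio within a library, Psmb8 over Psmb5 was 0.327 and 0.226 in old MIT-001, 0.142 and 0.14 in old PBS, and 0.475 and 0.322 in young PBS. Psmb10 over Psmb7 was 0.172 and 0.149 in old MIT-001, 0.114 and 0.112 in old PBS, and 0.271 and 0.218 in young PBS. In both ratios the old PBS libraries were nearly equal to each other and below the other 4 libraries.

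**Figure D5:**
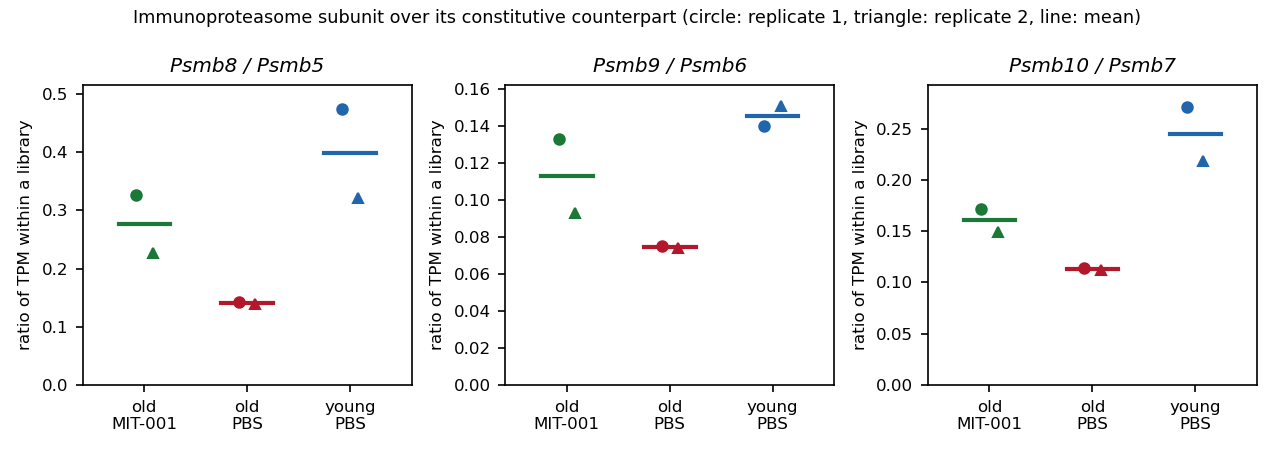
Ratio of TPM within a library (y axis, from 0) of each immunoproteasome subunit over its constitutive counterpart in the 3 groups (x axis), with a circle for replicate 1, a triangle for replicate 2 and a line for the mean. Psmb8 over Psmb5 is 0.142 and 0.14 in old PBS, below the other 4 libraries, and the old PBS libraries are also lowest for the other pairs.

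General chaperones of the endoplasmic reticulum help heavy chains to fold. Of 6 genes for loading chaperones and peptide trimming, 0 passed in any comparison, and in old PBS against young PBS 5 were above 0 (median 0.34). Canx, which encodes calnexin and holds new heavy chains, stood at 0.65 ± 0.24 (limma adjusted p 0.254), Uggt1 at 0.44 ± 0.29 (0.466), Erap1, the enzyme that trims peptides, at 0.41 ± 0.28 (0.482), and Pdia3 at 0.27 ± 0.29 (0.678). Among 20 genes of interferon signalling and of class I transcription, 0 passed in any comparison, with 12 above and 8 below 0 in old PBS against young PBS (median 0.03). Irf1, an interferon-induced activator of class I promoters, was at 49.0 and 59.4 TPM in old MIT-001, 34.7 and 32.1 TPM in old PBS, and 87.3 and 55.0 TPM in young PBS. Its log2 fold change was -1.03 ± 0.27 (0.216) in old PBS against young PBS, where Jak1 stood at 0.86 ± 0.19 (0.21), Ifngr2 at 0.52 ± 0.18 (0.242) and Ciita, the class II counterpart of Nlrc5, at -1.04 ± 0.37 (0.244). Rfxank, a subunit of the X box complex, was at 12.6 to 13.5 TPM in all 6 libraries.

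The 10 class I-like genes tested, which encode related proteins with other tasks, also gave 0 calls in any comparison, with 7 above and 3 below 0 in old PBS against young PBS (median 0.38). H60b, a ligand of the NKG2D receptor, was at 2.30 and 2.88 TPM in old MIT-001, 5.43 and 5.42 TPM in old PBS, and 0.208 and 0.275 TPM in young PBS (2.37 ± 0.29, limma adjusted p 0.0915). Raet1d, another NKG2D ligand, stood at 1.96 ± 0.48 (0.212), the iron regulator Hfe at -0.75 ± 0.26 (0.241) and the antibody transporter gene Fcgrt at -0.76 ± 0.33 (0.293). For these NKG2D ligands old PBS was the highest group. The NKG2D ligand genes Raet1e and Ulbp1 were added after their values were seen. Raet1e was at 3.82 and 0.699 TPM in old MIT-001 and 2.57 and 6.09 TPM in old PBS. In young PBS it was at 1.61 and 1.09 TPM, below both old PBS libraries, while old MIT-001 overlapped with both PBS groups. Ulbp1 had overlap between all groups. Ulbp1 was at 2.94 and 10.1 TPM in old MIT-001, 4.21 and 4.74 TPM in old PBS, and 1.10 and 5.94 TPM in young PBS.

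Leukocytes carry much class I, and the sums of their marker genes were lowest in old PBS. The 9 macrophage markers summed to 396 and 379 TPM in old MIT-001, 142 and 163 TPM in old PBS, and 891 and 835 TPM in young PBS, with none at 0. The 3 general leukocyte markers summed to 65.7 and 53.1 TPM in old MIT-001, 19.4 and 25.7 TPM in old PBS, and 124 and 132 TPM in young PBS. The 11 T and NK cell markers summed to 29.3 and 15.3 TPM in old MIT-001, 5.94 and 6.91 TPM in old PBS, and 29.6 and 26.5 TPM in young PBS, and Cd8b1 and Klrd1 were at 0 in old PBS replicate 1. The 5 dendritic cell markers summed to 36.8 and 21.7 TPM in old MIT-001, 19.0 and 14.5 TPM in old PBS, and 25.4 and 23.3 TPM in young PBS, with Xcr1 at 0 in old PBS replicate 1. In old PBS against young PBS 2 of the 9 macrophage markers passed, both lower. None of the 3 leukocyte, 8 T and NK cell and 3 dendritic cell markers tested did. The remaining T and NK and dendritic cell markers, Cd8a and Cd8b1 among them, fell below the filter on low values and were not tested. Their part in the class I values was not tested, and in whole ovaries fewer cells of a type and less RNA per cell cannot be told apart. Endothelial markers, of a cell type also rich in class I, summed to 235 and 183 TPM in old MIT-001, 302 and 285 TPM in old PBS, and 266 and 233 TPM in young PBS, so old PBS was highest. Surface epithelium markers summed to 608 and 647 TPM in old MIT-001, 163 and 157 TPM in old PBS, and 245 and 350 TPM in young PBS, and 1 of the 6, Krt18, passed as higher in old MIT-001 than in old PBS. Stromal fibroblast markers summed to 1463 and 1012 TPM in old MIT-001, 609 and 658 TPM in old PBS, and 738 and 933 TPM in young PBS. B and plasma cell markers summed to 958 and 82.5 TPM in old MIT-001, 15.6 and 14.7 TPM in old PBS, and 1398 and 182 TPM in young PBS, with Ms4a1 at 0 in young PBS replicate 2. Granulosa markers were on the other side, at 1670 and 2636 TPM in old MIT-001, 4945 and 6091 TPM in old PBS, and 2397 and 2383 TPM in young PBS.

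The genes with the most similar pattern were sought among 11953 genes whose mean TPM was 5 or more. Likeness was the root mean square difference from the members' mean centred log2(TPM + 1) profile over the 6 libraries, which was 0.19 and 0.02 in old MIT-001, -0.25 and -0.75 in old PBS, and 0.26 and 0.53 in young PBS. The 8 nearest genes were Plxnb1 (0.074), Csf1 (0.097), Plvap (0.10), Mt1 (0.101), Rundc3a (0.115), Csdc2 (0.13), Fes (0.131) and the class I gene H2-Q1 (0.135). Csf1, which encodes the growth factor of macrophages, was at 16.5 and 13.4 TPM in old MIT-001, 9.36 and 7.50 TPM in old PBS, and 15.3 and 18.2 TPM in young PBS. Each member is itself part of the mean profile. Among the members, B2m lay nearest to it (0.203), then H2-Q4 (0.285) and Tap1 (0.291), and H2-T23 (0.917) and Tap2 (0.791) lay farthest. Nlrc5 was below the minimum level.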

How the data were processed

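Polyadenylated RNA of mouse ovary was sequenced in 6 libraries. Per the labels' protocols, the RNA came from a TRIzol extraction and a SMARTer kit made the libraries. Per the submitters' processing notes, Trimmomatic, HISAT2 and StringTie were used on mm10, with versions, annotation and strand setting not given in the sources used here. The deposited TPM and FPKM values, per the file headers, are gene abundances. The deposited coverage signal gives reads per base of a gene and served for depth. No read counts were used, so no count model was applied, and precision rests on the spread between libraries.

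Gene IDs were paired with symbols through a RefSeq table of GRCm38.p6 (45683 or 45684 rows matched, 98 not), and values of 1 symbol were summed. Genes at TPM 1 or more in 2 or more libraries (16473) were analysed as log2(TPM + 1), which understates changes of low genes. Using limma 3.58.1 (R 4.3.3, trended empirical Bayes), a mean for each group was estimated from all 6 libraries, with 3 residual and 3.12 prior degrees of freedom. P-values were two-sided and Benjamini-Hochberg adjusted over all genes tested, with a threshold of 0.05. The procedure was tested on simulated data. The members, gene lists and motifs were chosen with earlier results of these data known, so no list received a test. All members were named. In each other list of genes of the pathway, those past the threshold or else up to 4 with the smallest p in old PBS against young PBS were named. H2-M3, Psme2, Raet1e, Ulbp1 and Rfxank were added after their values were seen. Alternatives were other pseudocounts, filters, units, scalings and fits, and leaving out each library.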

Additional observations from a re-analysis of the deposited data

How the results depend on the processing

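With 2 libraries a group the intervals are wide, and Nlrc5 had the lowest coverage of the members. The number of members past limma's threshold was 0 in all 3 comparisons under the other pseudocount, filters, FPKM, scalings, the untrended fit and the replicate block. It was 1 in old MIT-001 against old PBS when only the 4 libraries compared were fitted. Leaving out 1 library gave 0 to 2 in old PBS against young PBS and 0 to 1 in old MIT-001 against old PBS. The median log2 fold change of the members in old PBS against young PBS was -0.99 with FPKM and -1.11 after median centring, and -1.01 to -0.69 with 1 library left out. It was 0.40 to 0.65 with 1 library left out in old MIT-001 against old PBS. In old MIT-001 against young PBS it was -0.77 after median centring and -0.47 to -0.18 with 1 library left out.

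With 1 library left out, the log2 fold change in old PBS against young PBS ran from -0.46 to 0.29 for H2-K1 and from -1.87 to 0.90 for Tap2. In old MIT-001 against old PBS it ran from -0.71 to 0.038 for H2-K1, -0.47 to 0.35 for Nlrc5 and -0.12 to 0.35 for Tap1. In old MIT-001 against young PBS it ran from -0.75 to 0.40 for H2-D1, -0.024 to 0.54 for H2-T23, -0.93 to 0.031 for H2-Q7, -1.39 to 1.38 for Tap2 and -1.0 to 0.41 for Tapbp, and it was 0.0024 for Tap2 with a pseudocount of 0.1 and -0.16 for H2-T23 after median centring. The other signs held under each alternative run, although Nlrc5 was filtered out with FPKM and with a TPM minimum of 5; the causes were not tested. The labels do not say what the replicate numbers stand for. Differences between replicates 1 and 2 correlated across genes at 0.007 between old PBS and young PBS. The correlation was 0.175 between old MIT-001 and old PBS, and 0.239 between old MIT-001 and young PBS. Whether libraries of the same number were handled together was not tested. Every group holds both replicate numbers, so the replicate block cannot move a fold change. The members' medians of -0.79, 0.53 and -0.36 were thus fixed by the design. Only the p-values could move with the block, and 0 members passed. The block left 1, 0 and 0 genes past the threshold in the 3 comparisons, against 6, 3 and 0 without it.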

Other observations

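In the same chromosome 17 region, H2-Ea, H2-T10 and H2-Q10 had patterns between libraries unlike those of most of the 10 members. H2-Eb1 and H2-T22, given beside them, were lowest in old PBS, as most members were. All were chosen after their values were seen. H2-Ea, an MHC class II alpha chain gene known to be silent in C57BL/6 mice and expressed from the DBA/2 haplotype, was at 2.30 and 43.5 TPM in old MIT-001, 0.565 and 0.699 TPM in old PBS, and 3.88 and 2.27 TPM in young PBS. Its partner H2-Eb1 was at 51.7 and 54.1 TPM in old MIT-001, 1.39 and 1.54 TPM in old PBS, and 83.4 and 105 TPM in young PBS, so the single high H2-Ea library was not apart in H2-Eb1. The BDF1 label implies a DBA/2 haplotype in every library, while H2-Ea was at 0.565 to 3.88 TPM outside old MIT-001 replicate 2. Whether the strain label holds for each library was not tested. H2-T10, a nonclassical class I gene that shares 16.0% of its 75-base windows with H2-T22, was at 7.25 and 2.78 TPM in old MIT-001, 15.2 and 23 TPM in old PBS, and 7.08 and 5.35 TPM in young PBS. H2-T22 was at 78.1 and 69.4 TPM in old MIT-001, 58.6 and 19.3 TPM in old PBS, and 96.0 and 84.5 TPM in young PBS, with old PBS lowest where H2-T10 was highest. H2-Q10, known as a gene of the liver, was at 15.2 TPM in young PBS replicate 2 and at 0.668 to 1.69 TPM in the other 5 libraries.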
